A study of Rattus norvegicus with 24 samples.

Results

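The nuclear-encoded subunits of the respiratory chain were followed in quadriceps muscle RNA of 24 rats, as the 96 of 21067 rows whose symbol begins with Nduf, Uqcr, Atp5, Cox4, Cox5, Cox6, Cox7 or Cox8, or is Sdha, Sdhb, Sdhc, Sdhd or Cyc1. By symbol, 38 rows belong to complex I, 4 to complex II, 10 to complex III, 17 to complex IV and 17 to complex V, while 8 are complex I assembly factors (Ndufaf genes) and 2 are Ndufa4 and its paralogue Ndufa4l2. Young Sprague-Dawley rats of both sexes made up 4 groups of 6 libraries each. The control group was fed normally and did no treadmill training, and the treadmill group trained for several weeks and was then run to exhaustion. The catgut 1 group had absorbable thread embedded at the acupoints Qian Shen, Yang Wa, Han Gou, Xie Qi, Bai Hui and Qiang Feng before the same training and run, and the catgut 2 group had the same set with Fei Shu added. No group received catgut without training or training without the exhausting run, and neither the sex nor a batch is labelled per library. The paper names 6 rats per group. The labels do not say that the libraries of a group came from separate animals, so p-values measure the spread between these libraries.

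The respiratory chain passes electrons from NADH (complex I) and succinate (complex II) through complex III and cytochrome c to oxygen at complex IV, and pumps protons that drive ATP synthesis at complex V. Most subunits are encoded in the nucleus and imported, and the catalytic cores of complexes I, III and IV and part of complex V also need subunits made from mitochondrial DNA. Skeletal muscle is known to raise its mitochondrial content with endurance training, and oxidative fibres hold more of these proteins than glycolytic ones. Many of the genes are known targets of the factors NRF1 and GABPA, the latter an ETS factor, under the coactivator PGC-1alpha.

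Motifs of both factors were sought in RefSeq promoters (build GRCr8), each 300 bases from 250 before to 50 after the start site, which were found for 80 of the 92 member symbols. The letters GCGCANGCG of the NRF1 motif, on either strand, were present for 20 of the 80 genes (25%), against 13.4% of 10108 tested genes with a promoter and 6.46% of all 27457 genes. The ETS core CCGGAAG, on either strand, was present for 22 genes (27.5%), against 17.5% of the tested and 9.63% of all genes. NRF1 letters were found for 9 of 32 genes of complex I, 1 of 4 of complex II, 1 of 6 of complex III, 1 of 13 of complex IV and 6 of 16 of complex V. ETS letters were found for 7, 2, 3, 3 and 5 of the same genes in turn. A match describes letters only. One window per complex is shown as an example. It lies wholly before the start site, is written 5′ to 3′ on the gene's strand and has the match in capitals.
Ndufs1 (complex I, ETS, chr9:72073774-72073828, minus strand): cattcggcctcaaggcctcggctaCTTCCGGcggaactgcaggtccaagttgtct
Sdha (complex II, NRF1, chr1:30764483-30764539, plus strand): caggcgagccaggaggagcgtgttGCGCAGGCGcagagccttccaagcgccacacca
Uqcrc1 (complex III, NRF1, chr8:118468160-118468216, plus strand): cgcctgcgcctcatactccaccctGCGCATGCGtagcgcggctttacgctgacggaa
Cox8a (complex IV, ETS, chr1:213833650-213833704, minus strand): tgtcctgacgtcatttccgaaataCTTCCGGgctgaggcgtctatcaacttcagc
Atp5mc2 (complex V, NRF1, chr7:135678242-135678298, minus strand): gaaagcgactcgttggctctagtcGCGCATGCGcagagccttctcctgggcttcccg
The Atp5mc2 match overlaps a further one shifted by 1 base, and the Uqcrc1 window begins with another NRF1 match on the opposite strand, left in lower case. Neither motif was found in the windows of Cox7a1, Ndufa4l2 or Atp5f1b. The windows were not measured here and bear on no test.

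Total counts per library ran from 45945938 to 78278080, with group medians of 75150847 in control, 60688147 in treadmill, 56332834 in catgut 1 and 62100481 in catgut 2. The member rows took between 2.81% and 4.64% of a library's counts, with medians of 3.26% in control, 3.46% in treadmill, 3.51% in catgut 1 and 3.85% in catgut 2. Of 8 skeletal muscle fibre markers 5 were found and tested, with summed FPKM (fragments scaled to transcript length and library size) between 61820 and 85520. Liver markers, near 0 in most libraries, summed to as much as 198.3 FPKM in a control and 306.9 in a treadmill library, and to at most 0.725 in either catgut group.

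Subunit transcripts were among the abundant messages of the muscle. On the per-length FPKM scale the median of the mean levels was 302.7 over the 96 members, against 3.15 over all 14772 genes tested and 216.2 over 83 cytosolic ribosomal protein rows. Means above 100 FPKM were reached by 72 members, and 8 of the 62 genes above 1000 FPKM were members. By complex, the median level was 251.5 FPKM for I, 334.3 for II, 432.3 for III, 651.2 for IV and 599.5 for V. The 8 assembly factors, which help build complex I but are not part of it, had a median of 15.2.

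**Figure D1:**
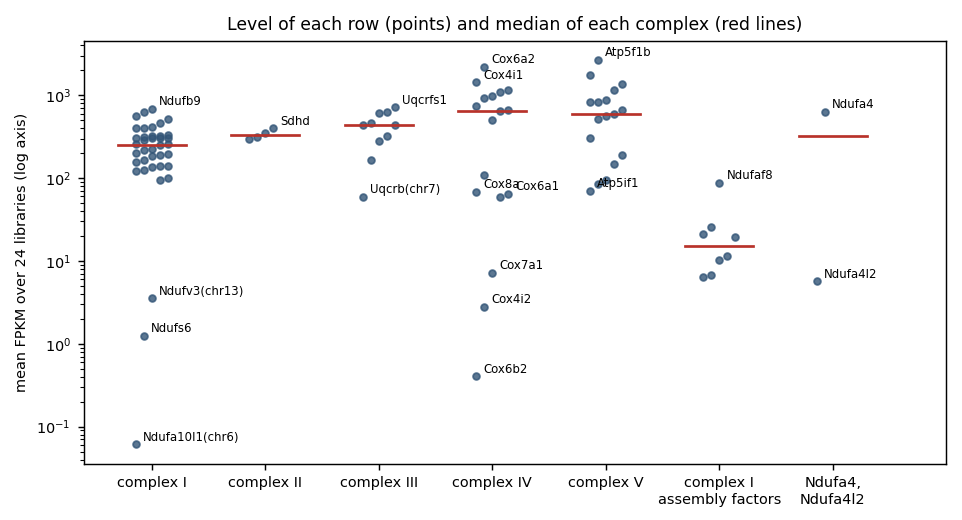
Mean FPKM over 24 libraries (log axis) of each of the 96 rows, by complex, with the median of each complex as a red line. Complexes IV and V had the highest medians (651.2 and 599.5 FPKM), assembly factors the lowest (15.2), and the rows furthest below their complex were Ndufa10l1 on chromosome 6, Cox6b2, Cox4i2 and Ndufs6.

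Atp5f1b, the catalytic beta subunit of ATP synthase, had the highest level of all members with a mean of 2664 FPKM, and its partner alpha subunit Atp5f1a had 1778. The inhibitor of the enzyme's reverse reaction, Atp5if1, was the lowest complex V row with 69.7. Among the c-ring genes, which encode the same mature proton-carrying protein, Atp5mc3 had 822.6, Atp5mc1 667.5 and Atp5mc2 599.5. In complex II, the flavoprotein gene Sdha (315.5), the iron-sulphur gene Sdhb (353.1) and the membrane anchors Sdhc (300.02) and Sdhd (399.9) lay within a narrow range. Uqcrfs1, the Rieske iron-sulphur protein, led complex III with 717.3, above cytochrome c1 (Cyc1, 456.4) and the core protein Uqcrc1 (431.9). Ndufb9, an accessory subunit, led complex I with 685.2, above the electron-input subunits Ndufv1 (304.3) and Ndufs1 (198.8).

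Complex IV has tissue isoforms, and those known for heart and muscle led here in the Cox6a and Cox8 pairs. Cox7a1, also a muscle form, had only 7.16 FPKM, and the row Cox7a2l2 had 736.7. Both rows need care, as described below. Cox6a2, the muscle form, had a mean of 2208 FPKM against 64.98 for the widespread Cox6a1. Cox8b had 919.7 against 68.3 for Cox8a. Cox4i1 had 1432, while Cox4i2, known from lung, had 2.78. Cox6b2, known from testis, had 0.403 against 500.4 for Cox6b1 on chromosome 1. Ndufa4, an associated subunit of complex IV despite its name, had 635.3 and its hypoxia-responsive paralogue Ndufa4l2 5.65.

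Some rows need care. The row named Cox7a1, the muscle form of subunit 7a, had only 7.16 FPKM over an implied length of 251 bases. Its counts averaged about 110 over the 24 libraries. In control it had at most 2.67 FPKM, so control counts were lower and its fold changes against control start from a low level. Another row, LOC687508, is described in the table as similar to the heart form of subunit VIIa and carries RefSeq's gene number for Cox7a1, so reads of this gene may have been divided between them. No row named Cox7a2 was found. RefSeq's gene table places 7 member rows on another chromosome than the deposited table does, namely Ndufa10l1 on chromosome 9, Ndufs6, Ndufv3 on chromosome 13, Uqcrb on chromosome 1, Cox6b1 on chromosome 2, Atp5md and Cox7a2l2. Of these, Ndufv3 on chromosome 13, Uqcrb on chromosome 1, Cox6b1 on chromosome 2 and Atp5md also span no more than 1.1 times their implied length, as a copy without introns would, so their counts could include reads of the parent gene. Ndufs6, at 1.24 FPKM, came close to this limit, with a span of 412 bases over an implied length of 364. Ndufa10l1 on chromosome 6, at 0.0608 FPKM, was the 1 member too low to be tested.

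The subunits went up and down together from library to library. After each group's mean was taken out, the median Pearson correlation between pairs of members over the 24 libraries was 0.825, against 0.445 between ribosomal protein genes and 0.00 between all genes tested, and it was 0.670 for the members with counts scaled to the library total without TMM, an alternative chosen after seeing the data. With TMM it was 0.895 within complex I, 0.801 within II, 0.758 within III, 0.847 within IV and 0.885 within V, and between 0.752 and 0.890 across pairs of complexes. The 8 assembly factors reached 0.292 among themselves. These are descriptions, since all rows share the libraries, their depth and their scaling.

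**Figure D2:**
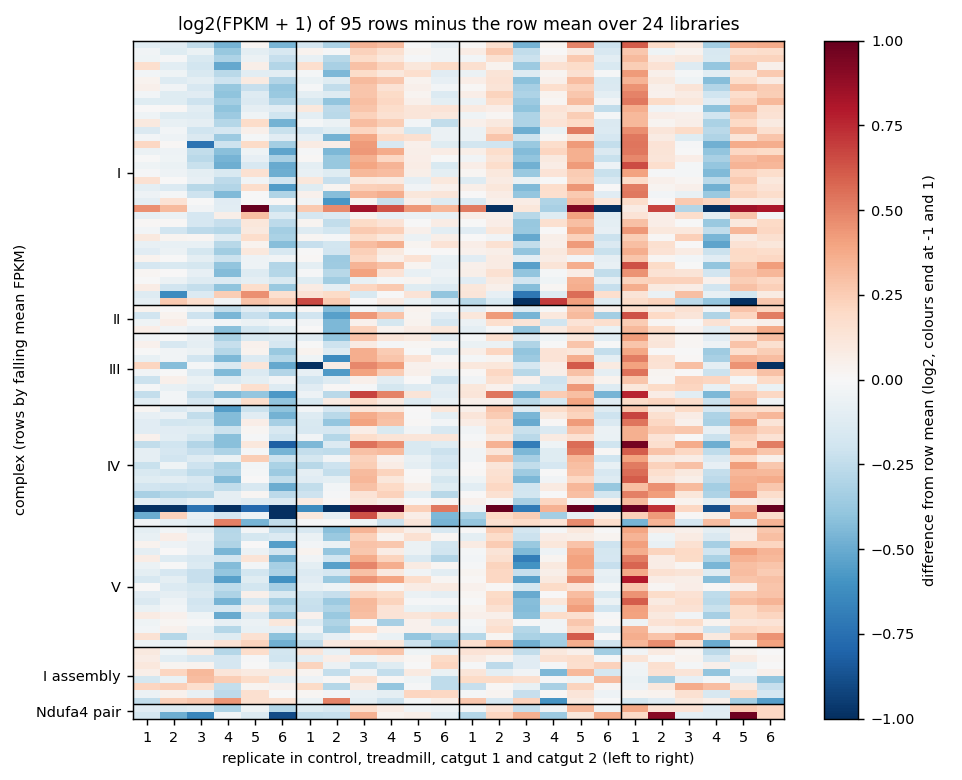
Difference of log2(FPKM + 1) from the row mean over 24 libraries, for the 95 members tested, with complexes from top to bottom and libraries by group from left to right. Some columns are mostly blue or mostly red across complexes I to V. The blue ones include control replicates 4 and 6, treadmill replicate 2, catgut 1 replicate 3 and catgut 2 replicate 4. The red ones include treadmill replicate 3, catgut 1 replicate 5 and catgut 2 replicate 1. Cox7a1, Ndufa1 and Ndufs6 are among the rows with the strongest single colours.

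With the median of all members (log2 CPM, counts scaled to the library total and the TMM factor, against each row's mean) as the level of a library, control ran from -0.50 to 0.01 with a median of -0.10. Treadmill ran from -0.45 to 0.32 with a median of 0.11. Catgut 1 ran from -0.49 to 0.22 with a median of 0.10, and catgut 2 from -0.31 to 0.55 with a median of 0.12. All 4 groups overlapped. The lowest library of each group was control replicate 4, treadmill replicate 2, catgut 1 replicate 3 and catgut 2 replicate 4, and the first 3 of these also had the highest TMM scaling factor of their group (1.165, 1.17 and 1.123). A high factor lowers every row of its library on this scale. With counts scaled to the library total alone, an alternative chosen after seeing the data, the members stood at -0.28, -0.23 and -0.32 in these 3 libraries, and control replicate 6 was then the lowest control with -0.30. The median of all genes then ran from -0.18 to 0.27 between libraries, and the highest of all was treadmill replicate 2. The SD of the member median within groups was 0.180 on that scale. With TMM the SD within groups was 0.264 for all members, 0.284 for complex I, 0.262 for II, 0.260 for III, 0.280 for IV and 0.286 for V, against 0.143 for ribosomal proteins and 0.162 for assembly factors. Group means of complex IV, the complex with the widest range of means, lay at -0.20 ± 0.18 in control, 0.03 ± 0.28 in treadmill, 0.00 ± 0.27 in catgut 1 and 0.19 ± 0.36 in catgut 2 (SD, n = 6). In bulk muscle, fewer fibres rich in mitochondria and less of this RNA per fibre cannot be told apart.

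**Figure D3:**
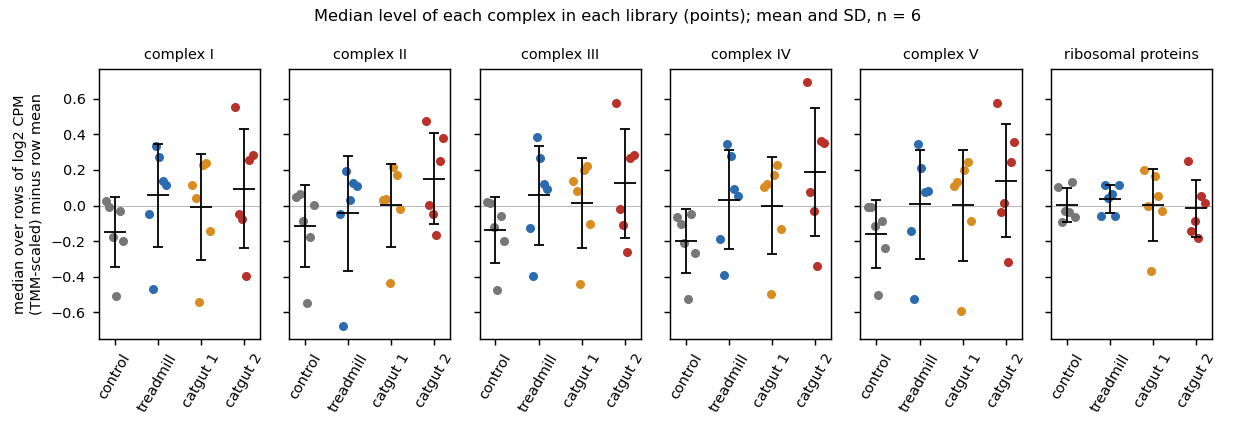
Median over the rows of each complex of TMM-scaled log2 CPM minus the row mean, for each library (points), with group mean and SD (n = 6), and ribosomal proteins at the right. The groups overlap in every complex, and the highest catgut 2 library reaches 0.70 in complex IV.

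Of the 95 members, 74 correlated above 0.8 with the member median and 11 below 0.5. Among the exceptions were Ndufaf4 (-0.38) and Cox6b2 (-0.34), which ran against it, as well as Cox4i2 (0.30) and Ndufa4l2 (0.31). Ndufa1, a short membrane subunit on chromosome X, correlated at 0.21. Its level ran from 132.5 to 376.0 FPKM in control, from 190.1 to 284.3 in treadmill, from 2.30 to 304.4 in catgut 1 and from 65.7 to 286.4 in catgut 2. The lowest of these, in catgut 1 replicate 2, stood far under every other library, on a row with an implied length of 220 bases.

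In treadmill against control, which asks what training with exhaustion changed, 0 of 95 members passed an adjusted p of 0.05 in edgeR's quasi-likelihood test, as did 0.0542% of all genes. At an unadjusted p under 0.05, 8 members were higher, where 4.03% of all genes were, and 0 were lower, where 5.08% were. The members' median log2 fold change was 0.20, with 82 of 95 positive, against a median close to 0 and 49.7% positive over all genes. As members moved together between libraries, such counts of signs are not independent observations. The medians of the complexes were 0.22 for I, 0.10 for II, 0.18 for III, 0.23 for IV and 0.16 for V. Without control replicate 4 the median of complex II was 0.02, and without treadmill replicate 3 those of I, III and V were 0.14, 0.10 and 0.09. The count of members at this p depended on single libraries. It was 51 without treadmill replicate 2, 14 without treadmill replicate 1 and 13 without control replicate 1. It was 4 or 5 without control replicates 3, 4 or 6 or treadmill replicates 3, 4 or 5. The share of all genes at this p was not counted in refits without 1 library, here or below.

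Cox7a1 was listed at 1.22, 1.89 and 2.67 FPKM (lowest, median, highest) in control and at 1.34, 6.99 and 22.0 in treadmill. All but 1 treadmill library lay above every control library. Its log2 fold change was 2.29 (adjusted p = 0.354, SE 0.59, exact permutation p = 0.0216). Of the members it alone met the paper's criterion (mean FPKM ratio beyond 1.5, p under 0.05), as did 2.85% of all genes. The p used in this criterion was edgeR's, here and below, so the genes meeting it are not the paper's own list. DESeq2 called Cox7a1, and no other member, in this comparison, where it called 0.771% of all genes. LOC687508 had means of 0.454 ± 0.114 FPKM in control and 1.84 ± 1.32 in treadmill (SD, n = 6), with a log2 difference of 2.07 (adjusted p = 0.275, SE 0.45).

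In 2 of 95 members every treadmill library lay above every control library, as in 0.325% of all genes. One was Cox7a2l, which joins complexes III and IV into supercomplexes. It ran from 53.3 to 56.1 FPKM with a median of 54.6 in control and from 59.4 to 64.0 with a median of 60.8 in treadmill. The log2 fold change was 0.20 (adjusted p = 0.50, SE 0.08), and the exact permutation p of 0.00216 is the smallest that 924 arrangements allow. The other was Ndufb4 of complex I, with at most 599.8 FPKM in control and at least 601.9 in treadmill (log2 fold change 0.24, adjusted p = 0.549, SE 0.11). Uqcrq, a small subunit of complex III, had 105.2, 126.8 and 154.2 FPKM in control and 130.2, 162.2 and 251.7 in treadmill. The ranges overlapped, and the log2 fold change was 0.54 (adjusted p = 0.480, SE 0.19).

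The other members at an unadjusted p under 0.05 were Cox8a, Ndufa4l2, Atp5mc1, Atp5mc2 and Ndufa7, with log2 fold changes of 0.32, 0.50, 0.44, 0.24 and 0.29 and adjusted p-values between 0.484 and 0.543. Ndufs7, an iron-sulphur subunit, had the largest difference of complex I at 0.36, and Sdhb that of complex II at 0.29. Sdha, at 310.0 ± 10.0 FPKM in control and 289.8 ± 35.9 in treadmill (SD, n = 6), lay on the other side. Of the 8 assembly factors, 4 had positive and 4 negative values.

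Catgut 1 against treadmill asks what embedding at the first acupoint set added to training. 0 members passed the adjusted p, as did 0.0474% of all genes, and 0 members were at an unadjusted p under 0.05, where 3.44% of all genes were higher and 3.49% lower. DESeq2 also called 0 members, against 0.952% of all genes, and limma on log2(FPKM + 1) put 1 at an unadjusted p under 0.05. The median of the members was -0.04, with 29 of 95 positive, against -0.01 and 47.8% positive over all genes. The members' median turned positive without treadmill replicate 3 (0.01), treadmill replicate 4 (0.00) or catgut 1 replicate 3 (0.05). By complex the medians were -0.06 for I, 0.04 for II, -0.03 for III, -0.05 for IV and -0.01 for V. Without catgut 1 replicate 3 the medians of all 5 complexes were positive (0.03 to 0.12), and without treadmill replicate 2 all 5 were negative (-0.14 to -0.07).

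Atp5pb, the b subunit of the stator that holds the ATP synthase head still, had the smallest p among subunits. It was listed at 115.0, 132.8 and 149.5 FPKM in treadmill and at 141.9, 145.3 and 175.0 in catgut 1. The groups overlapped, with a log2 difference of 0.16 (adjusted p = 0.896, SE 0.12). A near copy, LOC100911417, has almost the same FPKM, so reads of the pair may be shared. Sdha ran from 229.1 to 323.2 FPKM in treadmill and from 274.0 to 353.3 in catgut 1, a log2 fold change of 0.13 (adjusted p = 0.943, SE 0.12). Cox6b2 had the largest difference at 0.78 (SE 0.67), but at levels of at most 0.913 FPKM, and Ndufa1 had -0.61 (SE 0.63), with its low library in catgut 1. Uqcrc2, a core protein of complex III, had 0.09, and Uqcrq -0.12. In 0 of 95 members did every catgut 1 library lie above every treadmill library, as in 0.298% of all genes. None of the 461 genes (3.12%) that met the paper's criterion with edgeR's p was a member. The paper's own count of genes for this comparison differs.

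Catgut 2 against treadmill asks the same of the set with Fei Shu. Again 0 members passed the adjusted p, as did 0.237% of all genes. At an unadjusted p under 0.05, 2 members were higher and 1 lower, where 5.6% and 5.14% of all genes were. The median of the members was 0.11, with 74 of 95 positive, against 0.00 and 50.6% positive over all genes. Complex medians were 0.06 for I, 0.19 for II, 0.10 for III, 0.17 for IV and 0.16 for V, and -0.06 for the assembly factors. Without catgut 2 replicate 1 the median of the members was -0.01, and without treadmill replicate 2 it was 0.02. Without catgut 2 replicate 1 complex I had -0.02 and complexes IV and V 0.05 each, and without treadmill replicate 2 complexes I, II and III had -0.01, 0.08 and -0.002. The 3 members at this p became 10 without catgut 2 replicate 4 and 1 without catgut 2 replicate 5 or 6. No member was among the 3.76% of genes that met the paper's criterion with edgeR's p.

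Atp5md, a small accessory subunit of ATP synthase, was listed at 63.5, 76.3 and 84.4 FPKM in treadmill and at 89.3, 105.1 and 114.2 in catgut 2. Every catgut 2 library lay above every treadmill library, which held for 2 of 95 members and 0.582% of all genes. Its log2 fold change was 0.46 (adjusted p = 0.126, SE 0.11, exact permutation p = 0.00216), and DESeq2 and limma on log2(FPKM + 0.1) called it, as they did 2.21% and 0.203% of all genes. Control (62.5, 77.4 and 92.9 FPKM) and catgut 1 (66.1, 76.1 and 128.3) lay near treadmill. This row is one of those that RefSeq places on another chromosome and whose span fits a copy without introns, so it may hold reads of more than 1 locus.

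The other was Ndufs4, an accessory subunit needed for the assembly of complex I. It ran from 77.3 to 100.6 FPKM in treadmill with a median of 93.9, and from 102.0 to 117.3 in catgut 2 with a median of 115.8. All catgut 2 libraries lay above all treadmill libraries, but the log2 fold change of 0.26 (SE 0.12) had an unadjusted p of 0.0551 and an adjusted p of 0.481 in edgeR. Cox6c, a complex IV accessory subunit, had 966.6, 976.0 and 1135 FPKM in treadmill and 1025, 1301 and 1391 in catgut 2. Its log2 fold change was 0.30 (adjusted p = 0.421, SE 0.13).

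Uqcrc2 had 0.22 (adjusted p = 0.536, SE 0.12), Sdhd 0.19 and Sdhb 0.21. Ndufs6, at no more than 2.49 FPKM in any library and on a row that RefSeq places on another chromosome, had the largest difference of complex I at -0.49. Cox6b2 had that of complex IV at 0.55. The 1 member lower at an unadjusted p under 0.05 was the assembly factor Ndufaf4. Its FPKM was 5.28, 6.08 and 9.26 in treadmill and 3.96, 5.56 and 6.76 in catgut 2, and the groups overlapped (log2 fold change -0.26, adjusted p = 0.462, SE 0.12).

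**Figure D4:**
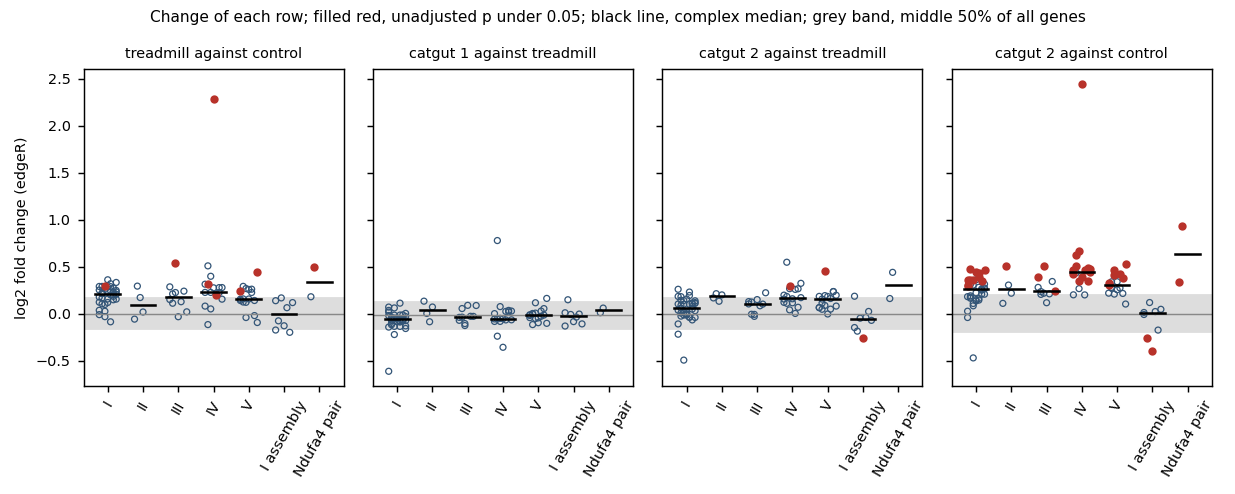
Log2 fold change of each tested member by complex (assembly factors and the Ndufa4 pair at the right of each panel) in 4 comparisons, with filled red points for an unadjusted p under 0.05, a black line at the median of each complex and a grey band for the middle 50% of all genes. Red points number 8, 0, 3 and 39 of 95 from the left panel to the right, and the highest point is Cox7a1.

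The largest differences appeared between catgut 2 and control, which differ by training, exhaustion and embedding together. 0 members passed the adjusted p, as did 0.508% of all genes, and the smallest adjusted p of a member was 0.0669. At an unadjusted p under 0.05, 37 of 95 members were higher, where 8.04% of all genes were, and 2 were lower, where 8.4% were. The members' median log2 fold change was 0.28, with 89 of 95 positive, against a median close to 0 and 49.3% positive over all genes. By complex, 11 of 37 rows of I were higher at this p, 1 of 4 of II, 3 of 10 of III, 13 of 17 of IV and 7 of 17 of V, as were both Ndufa4 rows. The medians were 0.26, 0.26, 0.24, 0.45 and 0.31 from complex I to V. Both lower members were assembly factors, Ndufaf4 (-0.39, SE 0.12) and Ndufaf2 (-0.26), and the median of the 8 was 0.00.

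Single libraries moved these counts as well. Without catgut 2 replicate 4, 9 members passed the adjusted p (Cox6a1, Cox6c, Ndufs4, Cox8a, Atp5mf, Ndufa4l2, Cox7a2l2, Cox7a1 and Cox7b) of 492 genes that did, and 61 were at an unadjusted p under 0.05. The 39 members at that p in both directions became 16 without catgut 2 replicate 1, 17 without control replicate 4 or catgut 2 replicate 6, and between 22 and 25 without control replicate 3 or 6 or catgut 2 replicate 5. The share of all genes at that p was again not counted in these refits. DESeq2 called 8 of 95 members and 5.61% of all genes. Limma called 1 member, Ndufs4, on either log2 scale, beside 0.474% of all genes on log2(FPKM + 1) and 0.44% on log2(FPKM + 0.1). Restricted to genes of at least 1 FPKM, edgeR called Cox7a1 and 0.993% of those genes.

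Cox7a1 had 2.30, 7.87 and 26.0 FPKM in catgut 2, and all but 1 library lay above every control library (log2 fold change 2.45, adjusted p = 0.0669, SE 0.52, exact permutation p = 0.00649). LOC687508 had 2.22 (adjusted p = 0.0680, SE 0.49). Cox8a, the widespread form of subunit 8, had 47.4, 58.4 and 60.04 FPKM in control and 52.9, 83.4 and 92.5 in catgut 2, with only catgut 2 replicate 4 inside the control range (log2 fold change 0.51, adjusted p = 0.105, SE 0.13). Cox7b, another small complex IV subunit, had 515.7, 552.8 and 630.6 FPKM in control and 607.4, 779.4 and 922.8 in catgut 2. Its log2 fold change was 0.48 (adjusted p = 0.125, SE 0.14).

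Ndufa4l2, which is known to be induced by low oxygen, had 2.42, 4.09 and 5.24 FPKM in control and 4.40, 5.26 and 7.12 in treadmill. It had 3.96, 6.13 and 7.23 in catgut 1 and 4.92, 6.31 and 11.5 in catgut 2. The catgut 2 range overlapped that of control with 2 libraries (log2 fold change 0.94, adjusted p = 0.120, SE 0.25). In the test of the 4 groups at once it had the smallest p of the members, 0.00420 (adjusted p = 0.170), and 0 members passed that test, as did 0.379% of all genes.

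For 3 of 95 members every catgut 2 library lay above every control library, as for 0.724% of all genes. Ndufs4 was 1 of them, with control (88.8, 91.7 and 98.5 FPKM) below catgut 2 and a log2 difference of 0.30 (adjusted p = 0.137, SE 0.09, exact permutation p = 0.00216). Ndufa9, an accessory subunit at the joint of the membrane and matrix arms, was another, with at most 302.6 FPKM in control and at least 303.5 in catgut 2 (0.44, adjusted p = 0.166, SE 0.14). The c-ring gene Atp5mc2 had at most 597.9 FPKM in control and at least 602.4 in catgut 2 (0.31). Atp5mf, a membrane subunit of ATP synthase, had 620.2, 702.3 and 758.1 FPKM in control and 746.4, 933.9 and 1054 in catgut 2 (0.42, adjusted p = 0.148, SE 0.13). Cox6a1 and Cox7a2l2 had 0.47 (adjusted p = 0.158) and 0.49 (adjusted p = 0.166), Atp5md 0.42 (adjusted p = 0.129) and Cox6c 0.35 (adjusted p = 0.166).

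**Figure D5:**
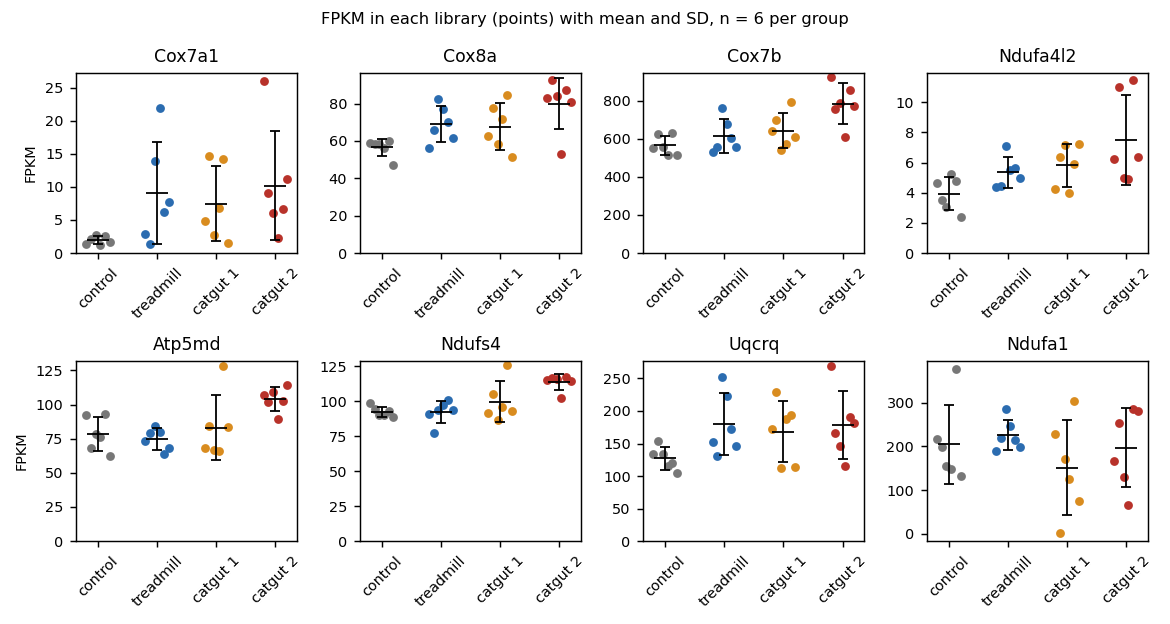
FPKM of 8 members in each library (points) with group mean and SD (n = 6), the axes starting at or below 0. Cox7a1 is low in all control libraries and spread from 1.34 to 26.0 FPKM in the other groups, catgut 2 stands above treadmill for Atp5md and Ndufs4, and 1 catgut 1 library of Ndufa1 is near 2.30.

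Catgut 1 against control used the same control libraries as the comparisons above. 0 members passed the adjusted p, as did 0.0203% of all genes. At an unadjusted p under 0.05, 5 members were higher (Cox7a1, Ndufa4l2, Atp5mf, Cox6a1 and Cox6a2), where 4.78% of all genes were, and 0 were lower, where 5.06% were. The median was 0.14, with 89 of 95 positive, against -0.01 and 47.9% positive over all genes. Cox7a1 had a log2 fold change of 1.93 (adjusted p = 0.295, SE 0.51), which DESeq2 called, as it did 1.32% of all genes. Without catgut 1 replicate 3 the 5 became 44, and without control replicates 3, 4 or 6 or catgut 1 replicates 2, 4 or 5 they became 2 or 3. In catgut 2 against catgut 1, which asks what adding Fei Shu changed, 0 members passed the adjusted p, as did 0.00677% of all genes. Atp5md was the 1 member higher at an unadjusted p under 0.05, where 1.87% of all genes were, with a log2 difference of 0.34 (adjusted p = 1, SE 0.15). Ndufaf2, an assembly factor, was the 1 lower, where 1.39% were. It had 10.8, 12.8 and 14.2 FPKM in catgut 1 and 8.28, 10.3 and 11.1 in catgut 2 (-0.34, adjusted p = 1, SE 0.12). The median was 0.13, with 85 of 95 positive, against 0.01 and 51.6% positive over all genes. The 2 members at this p became 8 without catgut 2 replicate 4, 5 without catgut 1 replicate 5, and 1 without catgut 1 replicates 1, 4 or 6 or catgut 2 replicates 1 or 5.

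The balance between tissue isoforms was compared as a log2 ratio of FPKM + 1 within each library, in 12 exact permutation tests of 4 pairs. Cox6a2 over Cox6a1 was 5.05 ± 0.30 in control, 5.13 ± 0.21 in treadmill, 5.14 ± 0.08 in catgut 1 and 4.97 ± 0.20 in catgut 2 (SD, n = 6). Cox8b over Cox8a was 3.63 ± 0.19, 3.69 ± 0.21, 3.70 ± 0.28 and 3.75 ± 0.35 in the same order. Cox4i2 over Cox4i1 was between -8.62 and -8.52 in all groups. Ndufa4l2 over Ndufa4 was -6.86 ± 0.33 in control, -6.63 ± 0.11 in treadmill, -6.58 ± 0.38 in catgut 1 and -6.45 ± 0.45 in catgut 2. All 12 adjusted p-values were 0.950, and the smallest exact permutation p was 0.149, for Ndufa4l2 over Ndufa4 in treadmill against control. Cox7a1 over Cox7a2 was not computed, since no row carries the second name.

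Beside the members, the 13 subunits encoded in mitochondrial DNA took a median of 12.1% of counts in control, 13.6% in treadmill, 15.7% in catgut 1 and 16.6% in catgut 2. Their median log2 fold change was 0.15 in treadmill against control, 0.01 in catgut 1 against treadmill and 0.05 in catgut 2 against treadmill. In catgut 2 against control it was 0.10. There Mt-nd4l (-0.18) and Mt-nd6 (-0.17) were negative, and only Mt-co1 (0.69, SE 0.22), 1 of 13, was higher at an unadjusted p under 0.05. A list of 48 assembly and carrier genes had medians of 0.02, 0.00, 0.05 and 0.10 in the same order, with 6 of 48 higher at that p in the last. The 83 ribosomal protein rows had medians of 0.03, -0.03, -0.05 and 0.01. None of these genes passed the adjusted p. The 15 regulators of mitochondrial genes had a median of 0.04 in treadmill against control and 0.00 in catgut 2 against control, where 7 were positive and 8 negative, with 2 higher and 0 lower at an unadjusted p under 0.05. Among them Ppargc1a, which encodes PGC-1alpha, had 2.14 ± 0.35 FPKM in control and 2.22 ± 0.19 in treadmill (SD, n = 6). It had 2.49 ± 0.37 in catgut 1 and 2.71 ± 0.25 in catgut 2. Its log2 fold change in catgut 2 was 0.35 against control (adjusted p = 0.205, SE 0.13) and 0.26 against treadmill (adjusted p = 0.402, SE 0.11). Against catgut 1 it was 0.12 (SE 0.13), and catgut 1 had 0.23 against control (adjusted p = 0.634, SE 0.14). Nrf1 (-0.05), Gabpa (-0.27) and Tfam (-0.01) had smaller or negative values in catgut 2 against control.

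Markers of fibre type and of other cells were read beside these values. The 7 slow fibre markers summed to 41.2 to 1850 FPKM in control, 15.7 to 2281 in treadmill, 17.1 to 3422 in catgut 1 and 317.4 to 4490 in catgut 2. All 7 had positive log2 fold changes in treadmill against control (median 1.17), catgut 1 against treadmill (0.73), catgut 2 against treadmill (0.93), catgut 1 against control (1.80) and catgut 2 against control (1.96), although the sums overlapped between all groups. At an unadjusted p under 0.05, 1 of 7 was higher in the last and 0 in the others. The slow myosin gene Myh7 had 36.1 ± 55.7 FPKM in control and 155.2 ± 141.7 in catgut 2 (SD, n = 6). The 5 fast fibre markers found (of 7) had a median of -0.21, with 2 lower at that p. All 4 blood markers found (of 5) were higher at an unadjusted p under 0.05 in treadmill against control (median 1.00), as were 3 of 4 in catgut 2 against control, and their sum ran from 309.2 to 576.7 FPKM in control and from 327.2 to 1864 in catgut 2. All 3 endothelial markers found (of 4) were higher at that p in catgut 2 against control. Adipocyte (6 genes), fibroblast (4), and macrophage and neutrophil markers (6) had medians of -1.01, 0.15 and 0.09 there, and 2 of 4 brown adipocyte and heart markers were found, with a median of 1.68. The summed adipocyte FPKM went the other way, with overlapping ranges. Its median was 416.6 (348.3 to 690.4) in control and 596.8 (468.5 to 702.7) in catgut 2. All 6 liver markers were lower at that p in both catgut groups against treadmill. No marker found was at 0 in all libraries, and none passed the adjusted p. The part of fibre type, blood or any other cell in the subunit values was not tested.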

How the data were processed

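Poly(A) RNA of quadriceps muscle from 24 rats, 6 per group, was sequenced by the authors. The deposited table lists, for 21067 Ensembl rows, a count and an FPKM value per library. The deposited FPKM values were scaled by the authors for transcript length and library size. The deposited counts are whole numbers, used as listed, although their commonest value above 0 is 4, so they may have been worked back from coverage. The submitters' processing notes name HISAT2 2.0 and StringTie 1.3.0. The genome build and whether counting used strand are not given in the sources used here, so reads of overlapping genes cannot be told apart. The labels' extraction text speaks of an adipose type.

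Rows averaging 0.1 FPKM or more were tested, 14772 in all and 95 of the 96 members. Each comparison's 12 libraries were scaled by TMM and fitted alone with edgeR 4.0.16 (R 4.3.3, quasi-likelihood test, two-sided), and p-values were adjusted by Benjamini-Hochberg over all rows tested. Standard errors were derived as the fold change over the root of F. A single value was also tested by the two-sided exact permutation test of log2(FPKM + 1) over 924 arrangements. The fits were tested on simulated data. Comparisons share libraries: the treadmill group enters 3 of the 6 comparisons, as does each other group. DESeq2 1.42.0, limma 3.58.1 on log2(FPKM + 1) and log2(FPKM + 0.1), other scaling, filters, counts divided by 4, a replicate block, a Y-linked level as covariate and leaving out each library were alternatives, as was scaling without TMM for the library levels, added after seeing the data. Shares of genes called by DESeq2 are of the genes to which it gave an adjusted p.

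Members and lists were chosen with earlier results of these data known. Named by rule were members passing an adjusted p of 0.05; the smallest p and largest difference per complex in the 3 comparisons of the study; the highest and lowest level per complex; isoform pairs and c-ring genes; core subunits; and members meeting the paper's criterion, of which only Cox7a1 did. Cox7b, Cox7a2l, Cox7a2l2, Ndufa9, Ndufb4, Atp5mf, Ndufaf2 and Ndufaf4 were named after their values were seen. Library totals of 45945938 to 78278080 leave counting error small for all but the lowest members, and a row was taken as detected above 12 counts. Promoter windows come from RefSeq (GRCr8), matched by symbol or, in 1 case, an older symbol. From RefSeq's gene table the chromosome of each member was compared, but its start and end positions were not used.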

Additional observations from a re-analysis of the deposited data

Results flagged for a closer look

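In groups of 6, 12 of 200 sets of values had an extreme library whose gap to the next was over 0.625 of the group's range. Chance alone flags about 1 in 20 groups. In catgut 2, replicate 4 was the lowest for Cox6c (1025 FPKM), Cox8a (52.9 FPKM) and Ndufs4 (102 FPKM), and the same library is the lowest of its group in the median of all members (-0.31).

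For complex II, treadmill replicate 2 lay at -0.68 and catgut 1 replicate 3 at -0.43 on the log2 scale of library medians, both apart from the rest of their group. In control, replicate 6 was low for Cox8a (47.4 FPKM), replicate 5 high for Ndufa1 (376 FPKM), replicate 2 high for Sdha (329 FPKM) and replicate 4 high for Cox6b2 (0.951 FPKM). Catgut 1 replicate 5 was high for Atp5md (128 FPKM). The row of Ndufa10l1 on chromosome 6, too low to be tested, had its highest values in treadmill replicate 6 (0.227 FPKM) and catgut 1 replicate 2 (0.241 FPKM).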

How the results depend on the processing

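The median log2 fold change of the members moved by less than the SD between libraries under every alternative. It ran from 0.137 to 0.259 in treadmill against control, -0.120 to 0.046 in catgut 1 against treadmill, -0.009 to 0.175 in catgut 2 against treadmill, 0.079 to 0.232 in catgut 1 against control, 0.170 to 0.342 in catgut 2 against control and 0.025 to 0.209 in catgut 2 against catgut 1. The sign thus turned in catgut 1 against treadmill and in catgut 2 against treadmill. The SD within groups, 0.264 for all members with TMM, is larger than most of the medians as fitted. Staying within it therefore does not fix the sign. Members passing the adjusted p numbered 0 in edgeR as fitted, and with DESeq2 1 in treadmill against control, 1 in catgut 2 against treadmill, 1 in catgut 1 against control and 8 in catgut 2 against control, beside 113, 306, 167 and 712 of all genes (0.771%, 2.21%, 1.32% and 5.61%). Limma on log2(FPKM + 0.1) gave 1 in catgut 2 against treadmill and 1 in catgut 2 against control, limma on log2(FPKM + 1) 1 in the latter, and rows of at least 1 FPKM 1 in the latter. Leaving out 1 library gave 0 to 9 there.

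Members at an unadjusted p under 0.05 numbered 8 in treadmill against control, with 14 for DESeq2, 15 for limma on either scale, 4 in 1 fit over all groups and 4 to 51 when 1 library was left out. In catgut 1 against treadmill 0 became 1 for limma on either scale. In catgut 2 against treadmill 3 became 11 for limma on either scale, 5 in 1 fit over all groups and 1 to 10 by library. In catgut 1 against control 5 became 8 for DESeq2 and 2 to 44 by library. In catgut 2 against control 39 ranged from 16 to 61 by library. In catgut 2 against catgut 1 the 2 became 4 for limma on either scale, 4 with the Y-linked covariate and 1 to 8 by library. The share of all genes at this p was not counted under the alternatives, the replicate block below included. The cause was not tested.

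Same-numbered libraries were not paired by the labels. Their deviations from the group means correlated from -0.226 to 0.232, over 0.1 in 3 of 36 pairs, and in 7 of 36 cases a library correlated better with its own number than with the other libraries of the second group. With a replicate block 0 members passed the adjusted p in each comparison, and the members at an unadjusted p under 0.05 were 2 in treadmill against control, 1 in catgut 2 against treadmill, 3 in catgut 1 against control and 55 in catgut 2 against control.

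A sign turned for Cox4i2 over Cox4i1 in catgut 2 against treadmill with FPKM + 0.1 (0.018), and on leaving out 1 library for Uqcrq in catgut 1 against treadmill (-0.234 to 0.00236). Isoform ratios turned as well: Cox6a2 over Cox6a1 (-0.000501 to 0.162 in treadmill against control, -0.0321 to 0.0764 in catgut 1 against treadmill), Cox4i2 over Cox4i1 (-0.0194 to 0.166 in treadmill against control, -0.113 to 0.0583 in catgut 2 against treadmill), Cox8b over Cox8a (-0.0330 to 0.112 in catgut 1 against treadmill, -0.0608 to 0.128 in catgut 2 against treadmill) and Ndufa4l2 over Ndufa4 (-0.0630 to 0.121 in catgut 1 against treadmill).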
